A study of Mus musculus with 9 samples.

Results

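The data described here cover 10 genes of the presynaptic active zone, Rims1, Rims2, Rims3, Rims4, Unc13a, Unc13b, Unc13c, Rimbp2, Bsn and Pclo, among the 31053 genes of a single-nucleus RNA-seq series of mouse brain. The members were taken by gene symbol and followed in excitatory neurons (ExN) and inhibitory neurons (InN). Nuclei came from pooled cortex and hippocampus of 9 male C57BL/6 mice without an engineered allele. All mice had received an adeno-associated virus (AAV) of the PHP.V1 capsid by retro-orbital injection, with a shortened Cldn5 promoter directing the transgene to brain endothelial cells. A group of 3 young mice (5 months) and a group of 3 aged mice (19 months) carried the EGFP control vector, and 3 further aged mice (19 months) carried B3GNT3, a glycosyltransferase that extends mucin-type O-glycans; tissue was taken 8 weeks after injection. The neurons were not the cells targeted by the virus. Groups were compared between mice, and neuron types within mice.

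The active zone is the patch of presynaptic membrane where synaptic vesicles dock, become fusion-ready and fuse when calcium enters. The large scaffolds Bassoon (Bsn) and Piccolo (Pclo) organise the site, RIM1 and RIM2 (Rims1, Rims2) tether vesicles and calcium channels, and RIM-binding protein 2 (Rimbp2) links RIMs to the channels. The Munc13 proteins (Unc13a, Unc13b, Unc13c) prime vesicles for fusion. Rims3 and Rims4 encode the short RIM3γ and RIM4γ proteins, which keep little more than the C-terminal C2 domain of the longer RIMs.

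The files held 77823 barcodes, of which 70217 nuclei were kept, 5767 to 9271 per mouse. Libraries held 47332047 to 79964605 unique molecular identifiers (UMIs), and any pair of libraries shared at most 0.394% of the smaller library's barcodes. By markers, 20469 nuclei were ExN and 7916 were InN. The excitatory marker list summed to between 2475 and 3051 CPM (UMIs per 1000000 of a sum's total) in ExN, against 10.7 to 19.5 for the inhibitory list. In InN the inhibitory list summed to 741 to 956 CPM and the excitatory list to 579 to 870 CPM, so these ranges overlapped. Which nuclei or listed genes gave the excitatory sum in InN was not tested, and comparisons between InN and ExN carry this limit. Nuclei with markers of direct- or indirect-pathway striatal neurons made up 43.5% of InN, although the labelled tissue was cortex and hippocampus, so InN values are also given without them where that changed a call. Counts were summed per mouse and class, to 17809669 to 35612098 UMIs in ExN and 5591483 to 10929555 in InN, and tested with edgeR over all genes. The ExN sums differed in make-up: deep intratelencephalic-like nuclei were 13.5 to 15.7% of ExN in aged AAV-EGFP mice, against 8.64 to 10.3% in young and 7.86 to 11.0% in treated mice, without overlap.

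All 10 members passed the count filter in both classes. The rarest counts in ExN were those of Unc13c, at 348 to 1274 UMIs per mouse, and in InN those of Rims3, at 176 to 454. Rims4 had 892 to 1612 UMIs per mouse in ExN and 305 to 581 in InN. In the annotation of the files' build (GRCm38), Rims4 lies on chromosome 2 from 163859751 to 163918683 on the minus strand, with no other annotated gene overlapping it. Unc13a (chromosome 8, 71624417 to 71671757, minus strand) overlaps Colgalt1 on the opposite strand and Mir6769b on its own. Bsn (chromosome 9, 108096022 to 108190384, minus strand) overlaps 4930447F24Rik and Gm37201 on the opposite strand and Gm47303 and Gm37247 on its own, and how reads shared with such genes were assigned is not given in the sources used here.

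Because Unc13a and Bsn changed together with Rims4 in the first comparison, the bases before their start sites are shown. RefSeq promoter windows (GRCm38.p6) were matched for 8 members; Rims2 and Rims4 had no entry. Each run below is the 250 bases 5′ of the start, with GC boxes (GGGCGG or its reverse complement CCGCCC) in capitals.
Unc13a, chr8:71671758-71672007, minus strand: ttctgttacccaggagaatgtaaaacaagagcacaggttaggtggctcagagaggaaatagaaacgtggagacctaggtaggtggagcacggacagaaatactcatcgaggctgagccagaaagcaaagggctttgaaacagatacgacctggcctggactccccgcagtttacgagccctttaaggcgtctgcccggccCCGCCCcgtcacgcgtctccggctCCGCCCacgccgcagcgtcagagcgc
Bsn, chr9:108190384-108190633, minus strand: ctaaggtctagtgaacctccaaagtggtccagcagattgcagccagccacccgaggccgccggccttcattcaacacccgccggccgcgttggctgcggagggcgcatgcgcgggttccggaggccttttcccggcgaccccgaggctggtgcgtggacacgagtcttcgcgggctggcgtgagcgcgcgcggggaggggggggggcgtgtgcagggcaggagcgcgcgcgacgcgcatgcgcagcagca
The Unc13a window held 2 GC boxes and the Bsn window none, at a G and C content of 58.0% and 71.6%. A GC box was found in 6 of the 8 members and in 32.7% of all 32851 windows. Those windows were not matched for G and C content, which was 58.0 to 71.6% in the members' windows, so the 2 shares are not like for like. The core TGACG (or CGTCA) of the cyclic AMP response element occurred 2 times before Unc13a and in no other member's window, against 17.8% of all windows. The E-box CACGTG was present before Unc13b only, against 6.02% of all windows.

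Whether ageing altered these genes was asked by comparing aged AAV-EGFP with young AAV-EGFP mice. In ExN, 3 of the 10 members fell and none rose: Rims4, Unc13a and Bsn. Genes called lower made up 6.72% of the 16997 tested, and genes called in either direction 14.2%. That background depended on single mice: of 2422 genes called, the count was 263, 1065 and 1362 without young replicates 3, 2 or 1, 531 and 694 without aged AAV-EGFP replicates 2 or 3, and 3682 without aged AAV-EGFP replicate 1.

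Rims4 was measured in ExN at 64.0, 58.4 and 58.7 CPM in the young mice, at 41.1, 32.1 and 42.5 CPM in the aged AAV-EGFP mice and at 68.0, 58.9 and 50.3 CPM in the aged AAV-B3GNT3 mice. The aged AAV-EGFP mice were below every mouse of both other groups. Rims4 thus dropped to 0.639 of its young level with age (log2 fold change -0.65, SE 0.13, adjusted p = 0.0128). With the same number of nuclei of each named type in every mouse, Rims4 in ExN changed by -0.71 with ageing (adjusted p = 0.00562) and 0.67 with treatment (adjusted p = 0.0257). The ageing call was lost without aged AAV-EGFP replicate 2 (log2 fold change -0.53, adjusted p = 0.0542) or without young AAV-EGFP replicate 3 (log2 fold change -0.67, adjusted p = 0.0545).

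Unc13a, the main vesicle-priming factor of most forebrain synapses, stood at 217, 161 and 180 CPM in young ExN and at 149, 128 and 125 CPM in aged AAV-EGFP ExN, without overlap. Its log2 fold change was -0.48 (SE 0.13, adjusted p = 0.0345). Bsn stood at 288, 237 and 268 CPM in young ExN and at 206, 186 and 190 CPM in aged AAV-EGFP ExN, again without overlap. Its log2 fold change was -0.45 (SE 0.13, adjusted p = 0.0360). Across the fits that each left out 1 mouse, Unc13a passed the threshold in 5 of 9 (adjusted p 0.0205 to 0.117) and Bsn in 4 of 9 (adjusted p 0.0169 to 0.116). Both were lost without young replicates 1 or 3 or aged AAV-EGFP replicates 2 or 3, and Bsn also without aged AAV-B3GNT3 replicate 1.

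The other scaffold, Pclo, was at 622 ± 48.2 CPM (SD, n = 3) in young and 601 ± 63.9 CPM in aged AAV-EGFP ExN, a log2 fold change of -0.05 (SE 0.11). Rimbp2 had a log2 fold change of -0.22 (SE 0.10, adjusted p = 0.158) and Unc13b one of -0.23 (SE 0.11, adjusted p = 0.159). For both, the young and aged AAV-EGFP mice also did not overlap, so this trait is not particular to the members called. The share of all genes without overlap is not given here. The long RIMs had positive estimates, 0.13 (SE 0.12) for Rims1 and 0.29 (SE 0.14, adjusted p = 0.175) for Rims2. Rims3, the closest relative of Rims4 among the members, had a log2 fold change of -0.12 (SE 0.22), and its 3 aged AAV-EGFP values ranged from 31.8 to 67.6 CPM around the young values of 53.4 to 60.0 CPM. Unc13c was variable, with aged AAV-EGFP mice from 18.4 to 56.6 CPM.

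**Figure D1:**
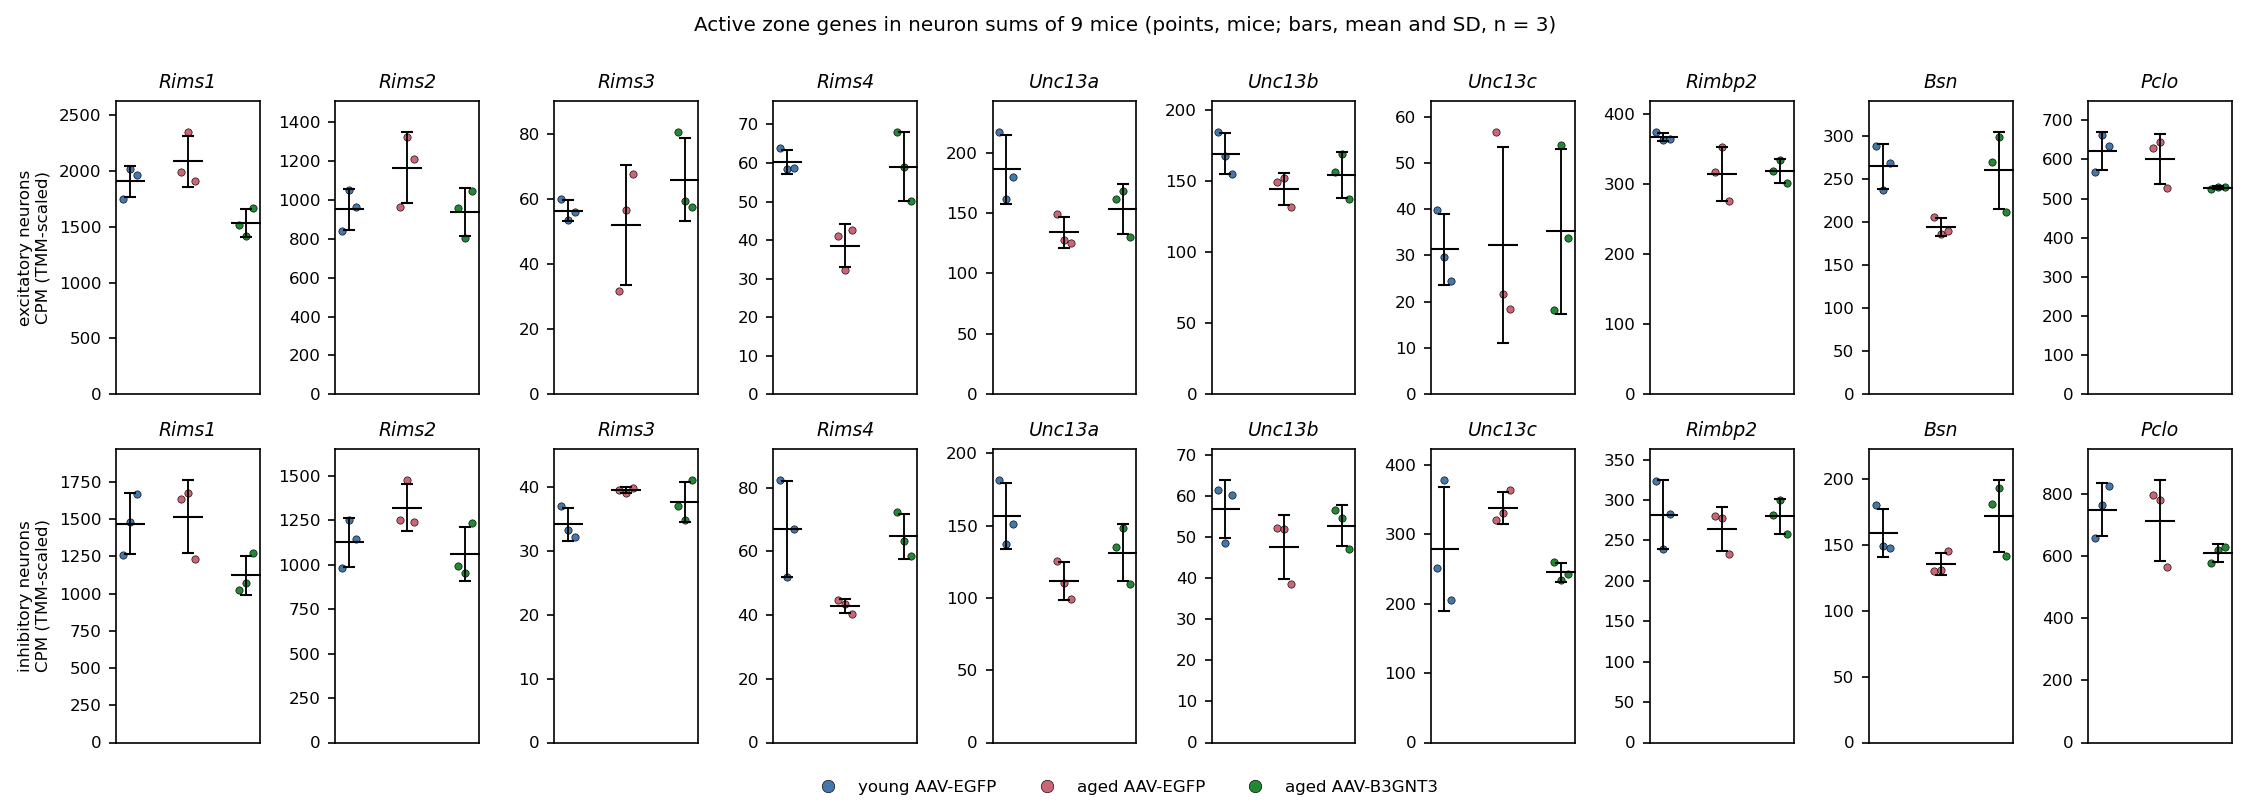
TMM-scaled CPM of each of the 10 genes (vertical axes start at 0) in the summed excitatory (upper row) and inhibitory (lower row) neurons; points are mice, coloured by group, and black bars give the mean and SD of 3 mice. In excitatory neurons the 3 aged AAV-EGFP mice lie at 32.1 to 42.5 CPM for Rims4, below the young (58.4 to 64.0) and the aged AAV-B3GNT3 mice (50.3 to 68.0).

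In InN 1 of 10 members was called with age, again Rims4 and again lower, where 1.72% of 14335 genes were called lower and 4.14% in either direction. The 594 genes called became 2, 4 and 3 without aged AAV-EGFP replicates 2 or 3 or young replicate 3, 45 without young replicate 1, 281 without aged AAV-B3GNT3 replicate 1 and 1358 without aged AAV-EGFP replicate 1. Rims4 stood at 82.4, 52.0 and 66.9 CPM in young InN and at 44.6, 43.6 and 40.4 CPM in aged AAV-EGFP InN. The groups did not overlap, and the young mice were spread more widely (SD 15.2 against 2.23 CPM). The young mice also varied in their striatal-like shares of InN, as given above. The log2 fold change was -0.64 (SE 0.15, adjusted p = 0.0377). That call is close to the threshold: it was lost with the replicate block (adjusted p = 0.0528), with free RNA subtracted (0.0568), with only the 2 groups in the fit (0.0559), and in 5 of the 9 fits without 1 mouse, namely without young replicates 1 or 3, aged AAV-EGFP replicates 2 or 3, or aged AAV-B3GNT3 replicate 1 (log2 fold change -0.48, -0.65, -0.66, -0.60 and -0.65). Unc13a in InN was at 181, 137 and 151 CPM in young and 126, 110 and 99.5 CPM in aged AAV-EGFP mice, a log2 fold change of -0.49 (SE 0.14, adjusted p = 0.0664). It passed with DESeq2 (-0.50, adjusted p = 0.0376) and when every mouse had the same mix of neuron types (-0.54, adjusted p = 0.0359). Without the striatal-like clusters the 2 members called were Rims4 (-0.57, adjusted p = 0.0283) and Unc13c, which rose (0.55, adjusted p = 0.0398), where 611 of 13084 genes were called. Over all InN the Unc13c value was 0.28 (SE 0.18, adjusted p = 0.346), and it was called in 1 of the 9 fits without 1 mouse, without young replicate 2 (0.56, adjusted p = 0.0389). Bsn had a log2 fold change of -0.23 (SE 0.13, adjusted p = 0.298) in InN, and Rims3 one of 0.21 (SE 0.11, adjusted p = 0.279). Neither was called, although the young and aged AAV-EGFP mice did not overlap for either gene.

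Tested as a class-by-group term over the 18 sums, the ageing change of no member differed between InN and ExN by edgeR (0 of 10 called, 1 at an unadjusted p under 0.05, Bsn; 0.0241% of 16614 genes called; DESeq2 was not run on this term). For Rims4 the difference, InN minus ExN, was 0.03 (SE 0.14), an interval of ± 2 SE from -0.26 to 0.32. For Unc13a it was -0.02 (SE 0.07), with an interval from -0.16 to 0.13. For Bsn it was 0.22 (SE 0.09, adjusted p = 0.476), which did not pass.

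The effect of endothelial B3GNT3 was asked by comparing aged AAV-B3GNT3 with aged AAV-EGFP mice. This comparison shares its 3 control mice with the ageing comparison, so the opposite signs in both are not independent of each other. In ExN, Rims4 was the 1 member called, and it was higher, where 1.01% of genes were called higher and 2.60% in either direction. The paper had named Rims4 among genes raised by AAV-B3GNT3 in neurons of these nuclei, so its call is no independent evidence. The 442 genes called fell to 0 by edgeR without aged AAV-EGFP replicate 2 (2711 genes had p under 0.05 before adjustment; DESeq2 was not run without single mice), to 5 and 4 without aged AAV-B3GNT3 replicates 1 or 2, to 24 and 111 without young replicates 3 or 2 and to 258 without aged AAV-EGFP replicate 3. They numbered 1489 without aged AAV-B3GNT3 replicate 3 and 1099 without aged AAV-EGFP replicate 1. Its level rose 1.53-fold (log2 fold change 0.61, SE 0.13, adjusted p = 0.0418), and the treated and control mice did not overlap. The call was lost when the fit held only the 2 groups (adjusted p = 0.0669) and without aged AAV-EGFP replicate 2 (log2 fold change 0.50, adjusted p = 0.175), aged AAV-B3GNT3 replicate 1 (0.51, adjusted p = 0.143), aged AAV-B3GNT3 replicate 2 (0.62, adjusted p = 0.171), young replicate 2 (0.61, adjusted p = 0.0564) or young replicate 3 (0.61, adjusted p = 0.0698).

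Bsn in ExN stood at 269, 299 and 212 CPM in the treated mice, each above the aged AAV-EGFP range of 186 to 206 CPM. The log2 fold change was 0.42 (SE 0.13), with an adjusted p of 0.0811 by edgeR and 0.0382 by DESeq2. Rims1 went the other way, at 1511, 1414 and 1667 CPM against 1993, 2345 and 1910 CPM, also without overlap. Its log2 fold change was -0.44 (SE 0.12), with an adjusted p of 0.0651 by edgeR and 0.00773 by DESeq2. Unc13a had a log2 fold change of 0.20 (SE 0.13, adjusted p = 0.397), and its treated values of 161, 168 and 130 CPM overlapped both other groups. Rims2 (-0.31, SE 0.14, adjusted p = 0.210), Pclo (-0.19, SE 0.11), Rims3 (0.34, SE 0.22), Unc13c (0.14, SE 0.42), Unc13b (0.10, SE 0.11) and Rimbp2 (0.01, SE 0.10) did not pass.

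In InN 0 of 10 members were called by edgeR for treatment (5 at an unadjusted p under 0.05), with 0.384% of genes called, and DESeq2 called 1, Rims4. The 55 genes called by edgeR fell to 0 without aged AAV-EGFP replicate 2 or aged AAV-B3GNT3 replicate 2 (1871 and 1568 at an unadjusted p under 0.05). They numbered 1 without aged AAV-B3GNT3 replicate 1, 9 without aged AAV-EGFP replicate 3 and 20 without young replicate 3. Without the other mice they numbered 140 to 535. Rims4 stood at 72.4, 63.3 and 58.7 CPM in treated InN, above all 3 aged AAV-EGFP mice (40.4 to 44.6 CPM). Its log2 fold change was 0.60 (SE 0.15), with an adjusted p of 0.0834 by edgeR and 0.0313 by DESeq2, and 0.0450 by edgeR without the striatal-like clusters. Unc13c in InN was at 260, 234 and 242 CPM in treated and 320, 331 and 365 CPM in aged AAV-EGFP mice (log2 fold change -0.47, SE 0.18, adjusted p = 0.186), and was called without the striatal-like clusters (-0.63, adjusted p = 0.0393), where 256 of 13084 genes were called. Rims1 had a log2 fold change of -0.43 (SE 0.16, adjusted p = 0.177) and Bsn one of 0.34 (SE 0.13, adjusted p = 0.193). Rims2, at -0.32 (SE 0.15, adjusted p = 0.267), also had no overlap between treated and aged AAV-EGFP mice. As a class-by-group term, the treatment change of no member differed between the classes by edgeR (0 of 10 called, 0 at an unadjusted p under 0.05; 0.00602% of genes called; DESeq2 not run). The Rims4 difference was -0.03 (SE 0.14), an interval from -0.31 to 0.26.

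Treated aged mice were also compared with the young mice. By edgeR 0 of 10 members were called in ExN (2 at an unadjusted p under 0.05; DESeq2 called 0), with 3.68% of genes called, and 0 of 10 in InN (1 at an unadjusted p under 0.05; DESeq2 called 0), with 0.732% called. Without 1 mouse the genes called ranged from 107 to 939 in ExN, against 626, and from 19 to 154 in InN, against 105. The Rims4 log2 fold change was -0.03 (SE 0.13) in ExN, with an interval of ± 2 SE from -0.29 to 0.23, and -0.05 (SE 0.15) in InN, with an interval from -0.35 to 0.25. These intervals leave room for differences of up to about these sizes in either direction. For Bsn the ExN value was -0.03 (SE 0.13), for Unc13a -0.28 (SE 0.13, adjusted p = 0.262) and for Rims1 -0.32 (SE 0.12, adjusted p = 0.162).

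**Figure D2:**
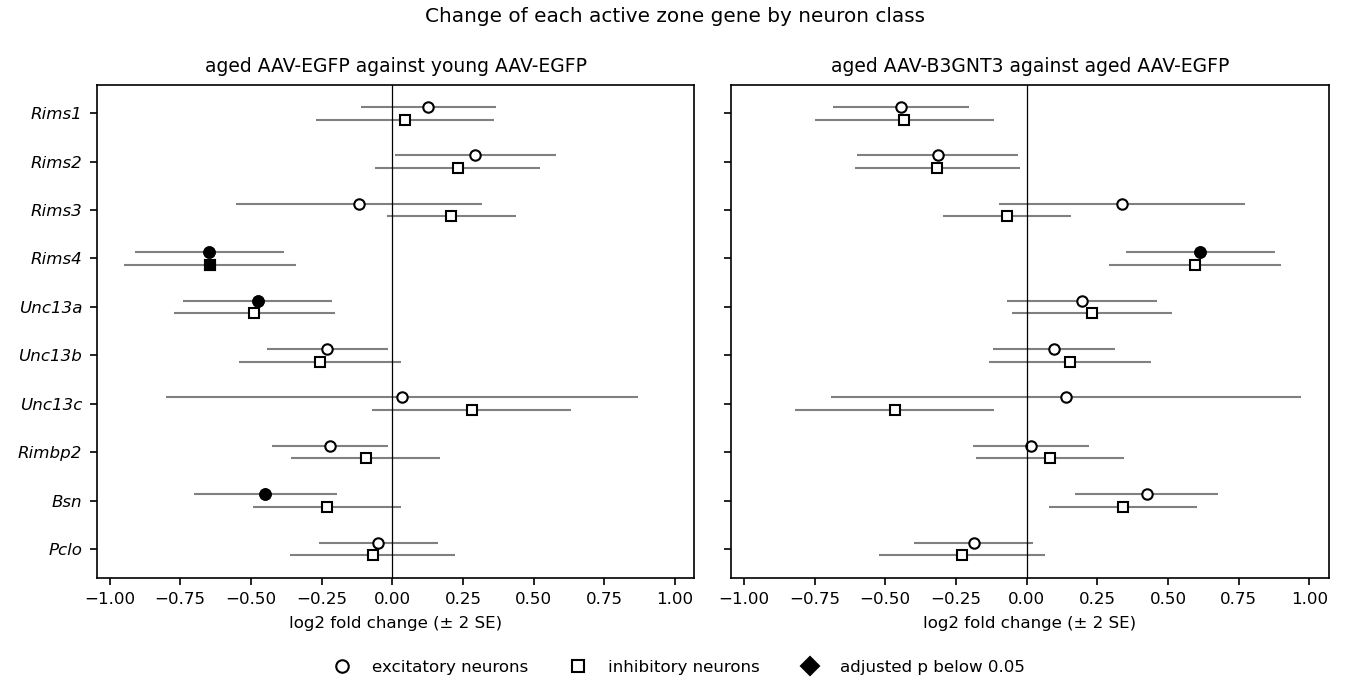
Log2 fold change (horizontal axis, ± 2 SE) of each gene with ageing (left) and with AAV-B3GNT3 in aged mice (right), circles for excitatory and squares for inhibitory neurons, filled where the adjusted p was below 0.05. Rims4 lies at -0.65 and -0.64 with ageing and at 0.61 and 0.60 with treatment in the 2 classes.

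RNA of other cells moved with these groups. The share of each neuron sum estimated as free RNA was 9.17 to 10.8% in young, 5.87 to 9.45% in aged AAV-EGFP and 7.69 to 9.03% in treated ExN, and 11.1 to 12.3%, 5.62 to 11.6% and 10.9 to 11.8% in InN. The 6 oligodendrocyte markers summed to 95.03 to 121 CPM in the ExN sums of aged AAV-EGFP mice, against 152 to 196 CPM in young and 161 to 199 CPM in treated mice. In InN the corresponding ranges were 118 to 136, 136 to 197 and 162 to 166 CPM. The 6 astrocyte markers in InN summed to 63.8 to 79.2 CPM in aged AAV-EGFP mice, 108 to 172 in young and 99.6 to 169 in treated mice, while in ExN the ranges overlapped (351 to 452, 414 to 570 and 349 to 479 CPM). Microglial markers in ExN were at 38.6 to 41.8 CPM in aged AAV-EGFP, 25.9 to 37.6 in young and 29.1 to 39.8 in treated mice, and in InN at 40.8 to 47.4, 26.2 to 44.5 and 30.7 to 38.2 CPM. The 6 endothelial markers lay between 3.87 and 12.3 CPM throughout, and no marker of these lists was at 0 in any group. After the library-wide profile was subtracted at a share set by the oligodendrocyte markers, the Rims4 log2 fold change in ExN was -0.67 with ageing (adjusted p = 0.0143) and 0.64 with treatment (adjusted p = 0.0493). That profile was the sum over all barcodes of the library, the neurons included, so the subtraction does not isolate free RNA.

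The share of nuclei with at least 1 Rims4 UMI was compared after each nucleus was thinned to 1000 UMIs, leaving out shallower nuclei (0 to 6 per mouse in ExN and 0 in InN). In ExN this share averaged 5.08% ± 0.412 in young, 3.58% ± 0.714 in aged AAV-EGFP and 6.14% ± 0.903 in treated mice. In InN it averaged 5.06% ± 1.39, 3.44% ± 0.463 and 6.77% ± 1.09. The aged AAV-EGFP mice were lowest in both classes and did not overlap either group (exact permutation test, two-sided, p = 0.1, the smallest that 3 against 3 allows). Oligodendrocytes, which should lack the gene, gave 0.932% ± 0.0331, 0.354% ± 0.134 and 0.679% ± 0.120, lower in every group than the neurons, with the aged AAV-EGFP mice again lowest and without overlap (exact permutation p = 0.1 for both comparisons). At this depth of 1000 UMIs, 9 to 26 shallower oligodendrocytes were left out per young, 145 to 368 per aged AAV-EGFP and 12 to 155 per treated mouse. At 2000 UMIs the oligodendrocyte groups overlapped, at 0.823 to 2.06% in young, 0.821 to 1.27% in aged AAV-EGFP and 1.25 to 1.41% in treated mice (exact permutation p = 0.6 for ageing and 0.2 for treatment), with 357 to 1887 shallower nuclei left out per mouse. At 1000 UMIs the oligodendrocyte shares of Unc13a, Bsn, Rims1, Rims2, Unc13c, Rimbp2 and Pclo were also lower with age. Young and aged AAV-EGFP mice did not overlap for any of them (exact permutation p = 0.1 each). The drop was thus not particular to members called lower in neurons. Rims3 overlapped (exact permutation p = 0.2), and Unc13b was not lower (p = 0.5). Unc13a was at 2.20 to 2.83% in young and 1.01 to 1.99% in aged AAV-EGFP mice, and Bsn at 3.02 to 4.64% and 1.65 to 2.20%. At 2000 UMIs, Unc13a, Bsn, Rims1, Rims2, Unc13c, Rimbp2 and Pclo still did not overlap (exact permutation p = 0.1 each), unlike Rims4. Before thinning, the median depth per mouse was 8478 to 12286 UMIs in ExN, 6826 to 10288 in InN and 1537.5 to 2508 in oligodendrocytes. The part that free RNA plays in the neuronal shares was not tested. Without thinning, the Rims4 shares in ExN were 43.3% ± 2.23, 31.5% ± 7.12 and 44.4% ± 6.37. Fewer nuclei with the transcript and fewer copies per nucleus cannot be told apart at this depth.

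A total of 24114 neuron nuclei fell into 16 types named by markers, 10 excitatory and 6 inhibitory, and 4271 had no named type. Rims4 was lower in aged AAV-EGFP than in young mice in all 15 types that could be tested, and the drop passed the threshold in 4 of them by edgeR, all cortical excitatory types, and in 3 by DESeq2. CA3-like neurons, with as few as 15 nuclei in a mouse, were not tested. Types are not independent, as each mouse contributes to all of them.

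In upper-layer-like neurons Rims4 stood at 61.0, 49.1 and 57.9 CPM in young, 35.6, 20.8 and 32.0 in aged AAV-EGFP and 61.5, 57.8 and 47.4 in treated mice. The log2 fold changes were -0.94 with ageing (SE 0.17, adjusted p = 0.00272; 13.7% of genes called) and 0.93 with treatment (SE 0.17, adjusted p = 0.0166; 2.91% called). The aged AAV-EGFP mice lay below all others. In deep intratelencephalic-like neurons, which project within the telencephalon, the values were 75.3, 71.9 and 65.8 CPM in young, 52.4, 43.3 and 54.6 in aged AAV-EGFP and 89.5, 97.0 and 75.6 in treated mice. Both changes passed there too, -0.51 with ageing (SE 0.14, adjusted p = 0.0417; 6.84% called) and 0.80 with treatment (SE 0.14, adjusted p = 0.0274; 1.32% called). Every treated mouse lay above every young mouse, the closest at 75.6 against 75.3 CPM. Between treated aged and young mice, edgeR called Rims4 in 0 of 15 types (smallest adjusted p = 0.155), with 8 estimates lower and 7 higher.

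Middle-layer-like neurons had 77.7, 76.1 and 76.5 CPM in young, 47.2, 36.1 and 44.2 in aged AAV-EGFP and 64.3, 61.2 and 55.5 in treated mice. The treated mice lay between the other groups without overlap. Ageing was called at -0.87 (SE 0.13, adjusted p = 0.00130; 10.4% called), and treatment missed the threshold at 0.52 (SE 0.13, adjusted p = 0.0522; 1.84% called). Extratelencephalic-like neurons had 68.3, 72.9 and 69.0 CPM in young, 42.7, 37.9 and 42.6 in aged AAV-EGFP and 69.3, 78.6 and 53.3 in treated mice. Ageing was called at -0.78 (SE 0.17, adjusted p = 0.0179; 2.83% called), and treatment was not, at 0.71 (SE 0.18, adjusted p = 0.0728; 0.371% called).

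No other tested type had a Rims4 call in either comparison. Layer 6 corticothalamic-like neurons gave -0.44 (SE 0.17) and 0.59 (SE 0.18) for ageing and treatment, with 12.2% and 3.11% of genes called. Layer 6b-like neurons gave -0.65 (SE 0.23) and 0.95 (SE 0.23), with 0.936% and 0.293% called. The largest estimates were in dentate granule-like neurons, at -1.16 (SE 0.44) and 1.27 (SE 0.43) with 0.611% and 0.0109% called, from the lowest Rims4 level of any type. CA1-like neurons gave -0.79 (SE 0.31) and 0.57 (SE 0.32), with 1.54% and 0.826% called, and near-projecting-like neurons -0.40 (SE 0.32) and 0.33 (SE 0.34), with 0.529% and 0.0% called.

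The inhibitory types had the same signs. Sst interneuron-like nuclei gave -0.64 (SE 0.21) and 0.75 (SE 0.21), with 0.883% and 0.357% of genes called, and Pvalb interneuron-like nuclei -0.46 (SE 0.15) and 0.42 (SE 0.15), with 1.91% and 1.36% called. Lamp5 interneuron-like nuclei gave -0.42 (SE 0.18) and 0.39 (SE 0.18), with 0.717% and 0.493% called, and Vip interneuron-like nuclei -0.35 (SE 0.37) and 0.51 (SE 0.34), with 0.476% and 0.645% called. Direct-pathway striatal-like nuclei gave -0.61 (SE 0.25) and 0.67 (SE 0.25), with 3.72% and 0.619% called, and indirect-pathway striatal-like nuclei -0.45 (SE 0.32) and 0.17 (SE 0.32), with 1.13% and 0.324% called. Rims4 calls over types ranged from 2 to 6 for ageing and from 0 to 7 for treatment when 1 mouse was left out, with 2 for ageing without aged AAV-EGFP replicates 2 or 3 or young replicate 3, and 0 for treatment without aged AAV-EGFP replicate 2, aged AAV-B3GNT3 replicate 1 or aged AAV-B3GNT3 replicate 2.

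**Figure D3:**
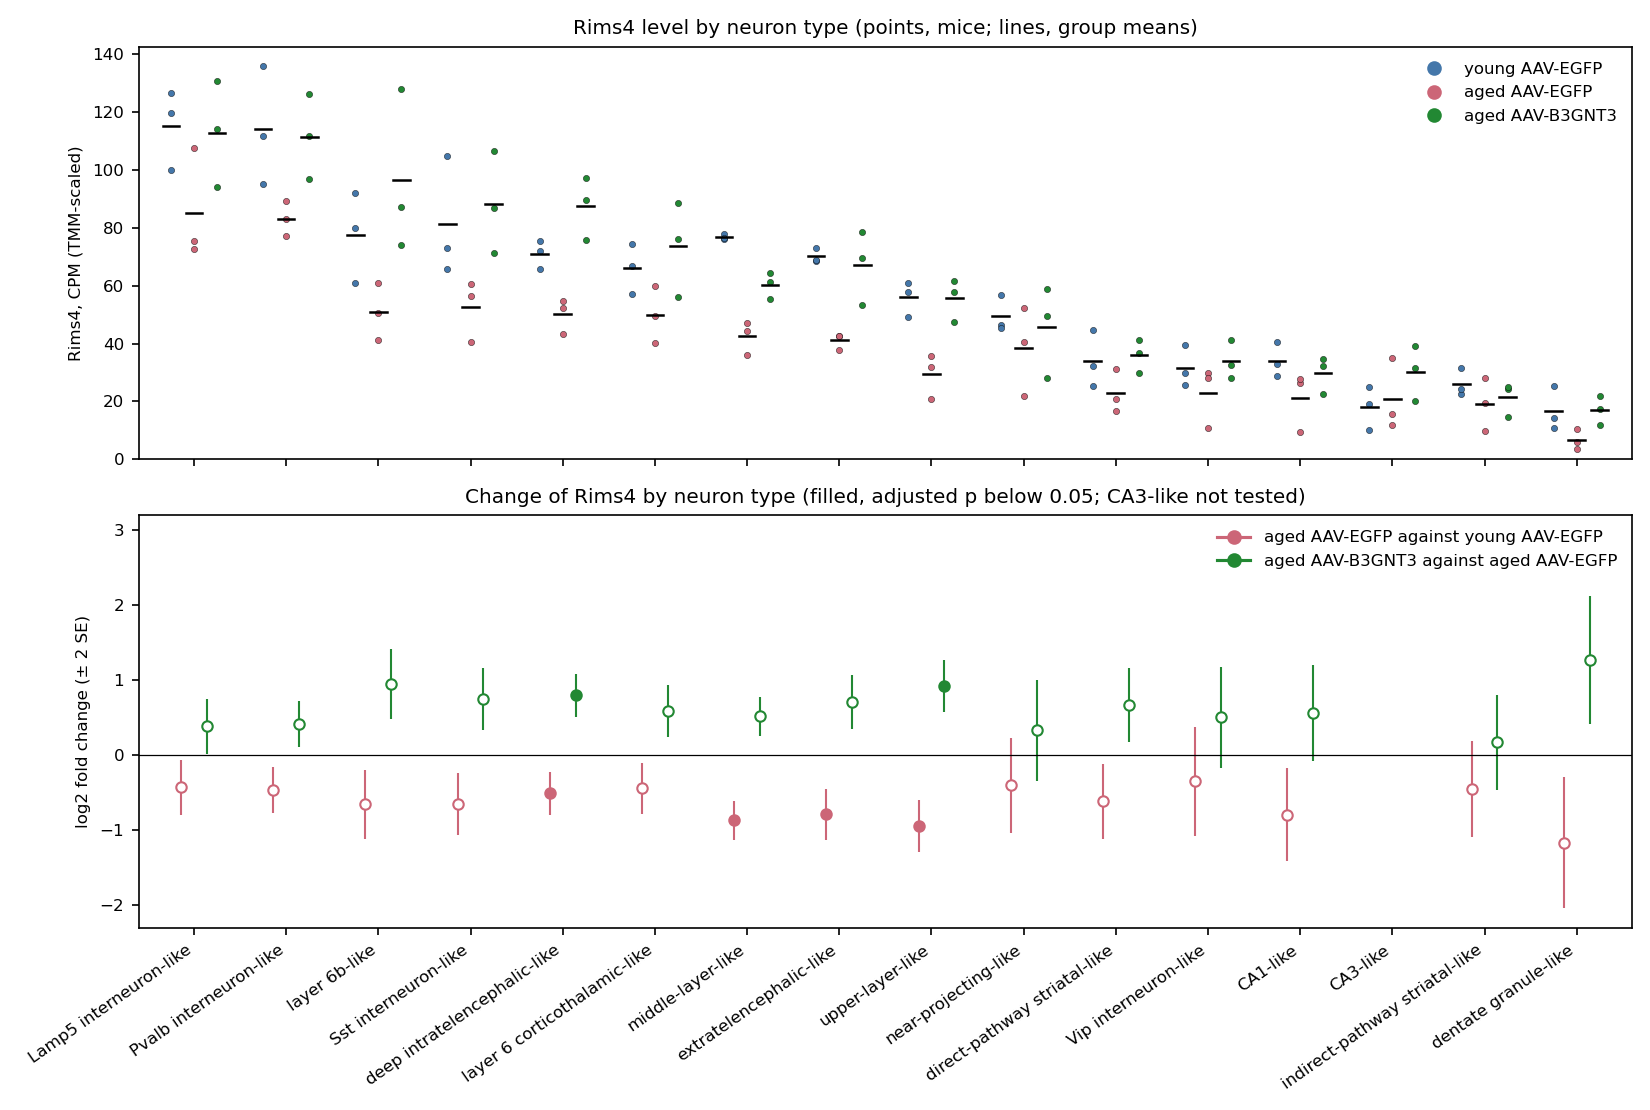
Rims4 in 16 neuron types ordered by mean level: upper panel, TMM-scaled CPM of each mouse with group means as lines; lower panel, log2 fold change with ± 2 SE, filled where the adjusted p was below 0.05. All 15 tested types have negative ageing and positive treatment estimates, from -1.16 to -0.35 and from 0.17 to 1.27.

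Bsn and Unc13a also kept 1 sign across types with age. Bsn had negative estimates in 15 of 15 types (-0.48 to -0.03) and was called lower in 3, upper-layer-like (-0.48), middle-layer-like (-0.48) and layer 6 corticothalamic-like neurons (-0.46). With treatment it had positive estimates in 15 of 15 types (0.08 to 0.50) and was called higher in layer 6 corticothalamic-like neurons (0.50, SE 0.13, adjusted p = 0.0454). Unc13a had negative ageing estimates in 15 of 15 types (-0.69 to -0.17) and was called in the same 3 types as Bsn, at -0.44, -0.46 and -0.51. These types had the highest shares of genes called with age among the 15, at 13.7%, 10.4% and 12.2%. Its treatment estimates were positive in 14 of 15 types, from -0.04 to 0.38, and neither edgeR nor DESeq2 called any (0 each; an unadjusted p under 0.05 in 2). Unc13b was called lower with age in layer 6 corticothalamic-like neurons alone by edgeR (-0.42, adjusted p = 0.0337), and DESeq2 called it in 0 types.

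The long RIMs showed the reverse signs. Rims1 had negative treatment estimates in 15 of 15 types (-0.55 to -0.25), with 1 call by edgeR, in Pvalb interneuron-like nuclei (-0.49, adjusted p = 0.0493), and 7 by DESeq2. In the class sums DESeq2 called more genes than edgeR for treatment, 1347 against 442 in ExN and 386 against 55 in InN. The shares of all genes that DESeq2 called within types are not given here. With age Rims1 had positive estimates in 14 of 15 types, up to 0.31. Rims2 had positive ageing estimates in 15 of 15 types (0.16 to 0.42) and negative treatment estimates in 15 of 15 (-0.44 to -0.11). By edgeR 0 of these Rims2 estimates were called (5 and 8 at an unadjusted p under 0.05), and DESeq2 called 0 and 1. Pclo had negative treatment estimates in 15 of 15 types (-0.38 to -0.05), and neither edgeR nor DESeq2 called any (0 each; an unadjusted p under 0.05 in 1). Rims3, which passed the count filter in 13 types, and Unc13c, which passed it in 14, varied in sign from type to type, with 0 called in either comparison by edgeR or DESeq2 (2 and 4 at an unadjusted p under 0.05 for Rims3, 5 and 4 for Unc13c).

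**Figure D4:**
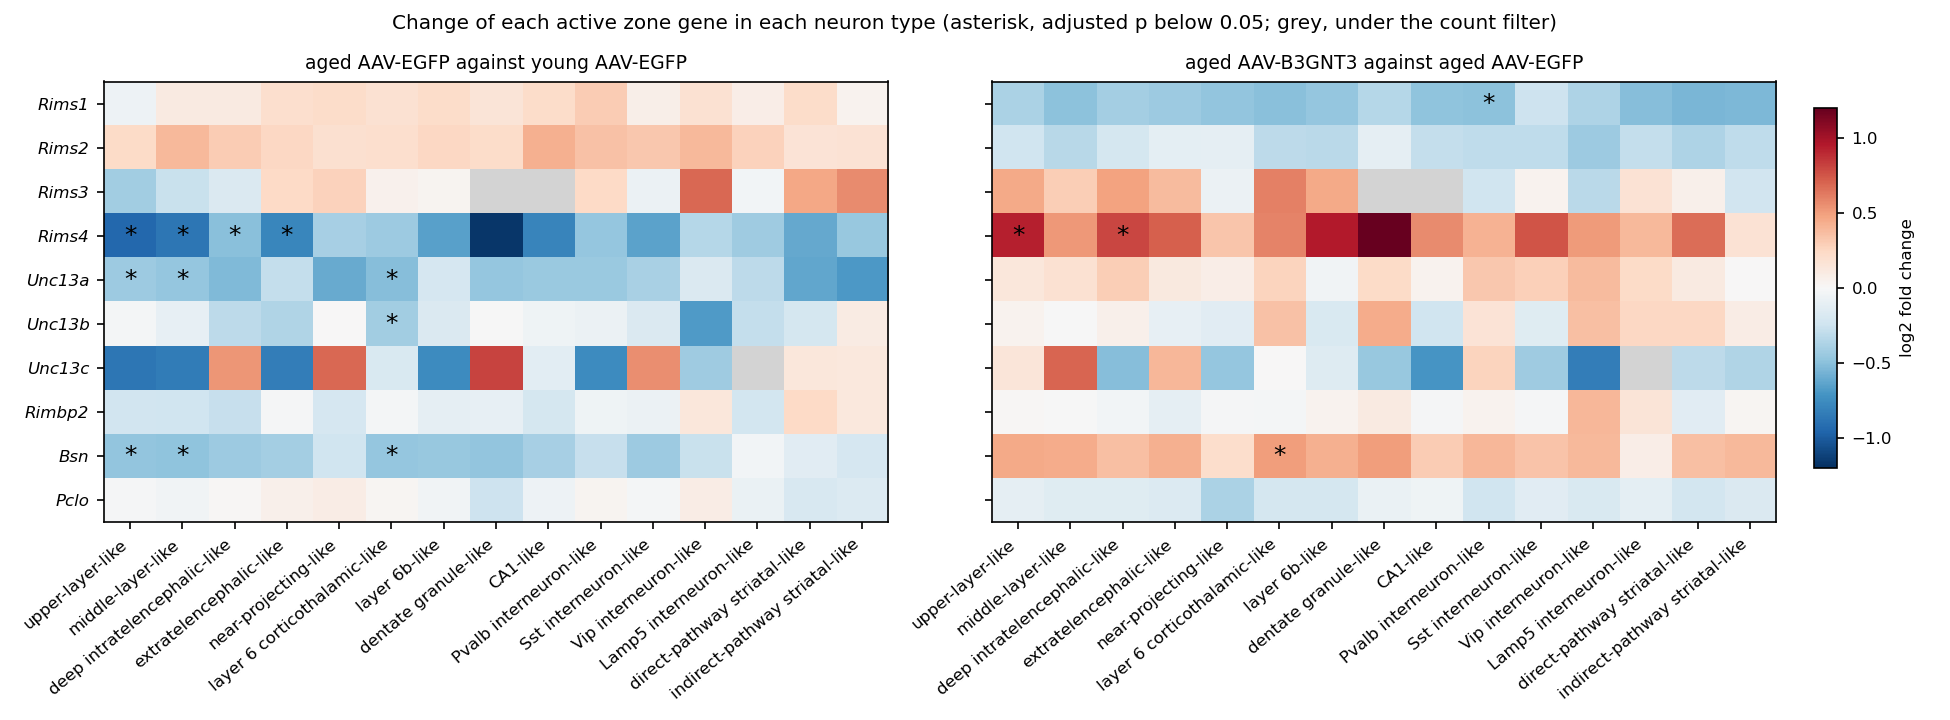
Log2 fold change (colour, blue lower and red higher) of each gene in each of 15 neuron types with ageing (left) and with AAV-B3GNT3 in aged mice (right); asterisks mark an adjusted p below 0.05 and grey cells fell under the count filter. The Rims4, Unc13a and Bsn rows are negative with ageing in all 15 types, and the Rims1 and Rims2 rows are negative with treatment in all 15.

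Levels were also compared between neuron types. Means over the 9 mice were ordered for each gene, and neighbours in the order were compared by an exact sign-flip permutation test within mice, adjusted over the 15 neighbouring pairs. Rims4 was highest in Lamp5 interneuron-like (104 ± 20.9 CPM, SD, n = 9) and Pvalb interneuron-like nuclei (103 ± 19.7), which did not differ beyond their spread (exact permutation, adjusted p = 0.862). It then stepped down to layer 6b-like (74.9 ± 26.0; exact permutation, adjusted p = 0.0391), and the next 5 types followed without a called step, Sst interneuron-like (73.9 ± 21.9), deep intratelencephalic-like (69.5 ± 17.5), layer 6 corticothalamic-like (63.1 ± 14.9), middle-layer-like (59.9 ± 15.3) and extratelencephalic-like (59.4 ± 15.3). Upper-layer-like neurons were lower again (47.0 ± 14.5; exact permutation, adjusted p = 0.0391). Near-projecting-like neurons were at 44.5 ± 12.4 CPM, and a further step (exact permutation, adjusted p = 0.0440) led to direct-pathway striatal-like (30.9 ± 9.10), Vip interneuron-like (29.5 ± 8.77), CA1-like (28.4 ± 8.79), CA3-like (23.1 ± 10.3) and indirect-pathway striatal-like neurons (22.2 ± 6.70). Dentate granule-like neurons were lowest at 13.5 ± 6.97 CPM (exact permutation, adjusted p = 0.0391 against the next), 7.71 times below the highest.

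Rims3 was highest in middle-layer-like (140 ± 20.6 CPM) and upper-layer-like neurons (92.8 ± 16.6) and near the floor in the hippocampal CA1-like neurons (2.13 ± 1.55). Unc13c was found at 560.5 ± 63.3 CPM in direct-pathway and 467 ± 74.7 CPM in indirect-pathway striatal-like nuclei, at 440.5 ± 116 CPM in Sst interneuron-like and at 227 ± 83.1 CPM in near-projecting-like neurons, while 11 of the other types were below 20 CPM and dentate granule-like neurons were at 41.6 ± 18.2 CPM. The step from near-projecting-like to dentate granule-like neurons was called (exact permutation, adjusted p = 0.0195). Unc13b was highest in near-projecting-like neurons (411 ± 45.7 CPM), above middle-layer-like neurons at 220 ± 16.8 (exact permutation, adjusted p = 0.0293), and lowest in indirect-pathway striatal-like nuclei (30.4 ± 6.84).

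Rims1 and Rimbp2 were highest in Lamp5 interneuron-like nuclei, at 3645 ± 663 and 632 ± 87.3 CPM, and Pclo in Sst interneuron-like nuclei, at 978 ± 90.1 CPM. Rims2 was highest in middle-layer-like neurons (1543 ± 272 CPM) and lowest in dentate granule-like neurons (465 ± 84.0). Unc13a ranged from 121 ± 38.1 CPM in indirect-pathway striatal-like to 169.5 ± 41.3 CPM in CA3-like nuclei, a 1.40-fold range. Bsn ranged 2.57-fold, with 0 of 15 neighbouring pairs past the threshold for either gene, which does not test types farther apart in the order. Its means lay between 120 ± 24.2 CPM in Vip interneuron-like and 307 ± 57.1 CPM in deep intratelencephalic-like nuclei.

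**Figure D5:**
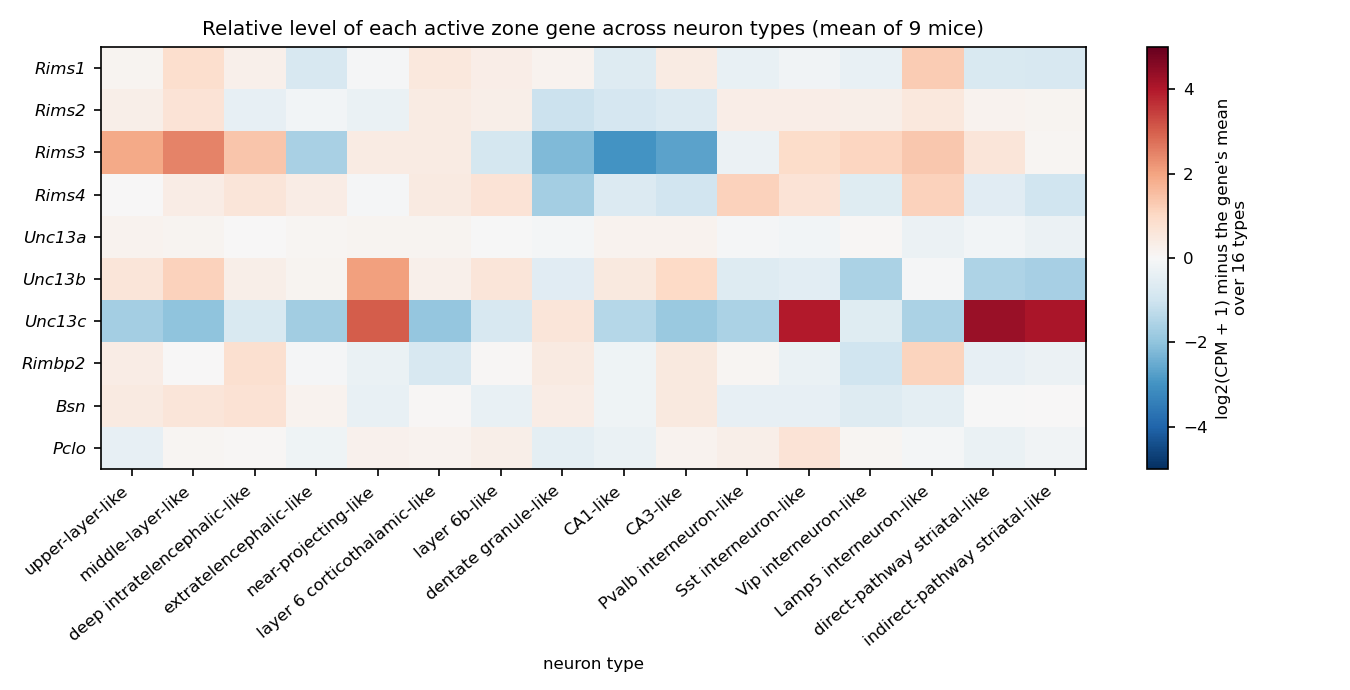
Level of each gene in 16 neuron types as log2(CPM + 1) minus that gene's mean over the types (colour), from means of 9 mice; the scale compares types within a gene, not genes with each other. Rims3 is low in CA1-like neurons (2.13 CPM), and Unc13c is high in striatal-like, Sst interneuron-like and near-projecting-like nuclei.

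Further genes of release sites were read from 3 lists, described by counts and medians. Of 24 active zone partners (liprins, Rab3 proteins, receptor phosphatases and calcium channels among them), all were tested in both classes. With age in ExN 4 fell and 1 rose, where 14.2% of all genes were called and 6.72% were called lower, with a list median log2 fold change of -0.12 against 0.02 over all genes. Those that fell were Rph3a, a Rab3 effector (-0.62, SE 0.13, adjusted p = 0.0137), the liprin Ppfia1 (-0.40, adjusted p = 0.0258), the liprin Ppfia4 (-0.41, adjusted p = 0.0352) and the scaffold Apba1 (-0.37, adjusted p = 0.0457), the last named after its value was seen. Rab3a, a vesicle GTPase, rose (0.89, SE 0.19, adjusted p = 0.0151). In InN Rab3a was the 1 partner called with age, higher by 0.95 (SE 0.22, adjusted p = 0.0362). A count of 1 in 24 is close to the 4.14% of all genes called there.

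With treatment 1 partner was called in ExN, Ppfia4, at 22.3 ± 1.95 CPM in young, 16.8 ± 1.76 in aged AAV-EGFP and 25.6 ± 0.491 in treated mice (log2 fold change 0.61, SE 0.11, adjusted p = 0.0345; list median 0.03 against 0.01 over all genes). Over all genes edgeR called 2.60% and called 1.01% higher, so its count of 1 in 24 is near the background. DESeq2 called 3 of the 24, where it called 1347 of 16997 genes, and 5 partners had an unadjusted p under 0.05 by edgeR. Rph3a had 142 ± 8.61, 92.7 ± 13.4 and 93.7 ± 13.7 CPM in the same groups, and was lower in treated aged than in young mice (-0.60, SE 0.13, adjusted p = 0.0263), as was the scaffold Erc1 (-0.54, SE 0.12, adjusted p = 0.0328). These were the 2 of 24 partners that edgeR called in that comparison, where 3.68% of all genes were called. DESeq2 called 3, where it called 1107 of 16997 genes. The list median was -0.11 against 0.004 over all genes. In InN edgeR called 0 of 24 partners with treatment or against young mice, where 0.384% and 0.732% of all genes were called. An unadjusted p under 0.05 was found for 5 and 5 of them, and DESeq2 called 0 and 0.

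Of 18 genes of the fusion machinery (SNAREs, synaptotagmins, complexins and their partners), edgeR called 0 in every comparison, where 14.2%, 2.60% and 3.68% of all genes were called for ageing, treatment and treated against young in ExN and 4.14%, 0.384% and 0.732% in InN. Genes with an unadjusted p under 0.05 numbered 5, 5 and 2 for ageing, treatment and treated against young in ExN and 3, 5 and 1 in InN. DESeq2 called 1, 2 and 0 in ExN and 1, 2 and 0 in InN. The ExN medians were -0.06 with ageing and 0.10 with treatment, against 0.02 and 0.01 over all genes. Of 12 vesicle proteins, Sv2c fell with age in ExN (37.4 ± 1.58 to 20.4 ± 3.097 CPM; log2 fold change -0.88, SE 0.12, adjusted p = 0.00473) and Scamp5 rose (0.37, SE 0.09, adjusted p = 0.0262). A count of 2 in 12 is near the 14.2% of all genes called. The list median was -0.15 with ageing, against 0.02 over all genes, and 0.08 with treatment, against 0.01. In the other 5 comparisons of class and group, edgeR called 0 vesicle proteins (3 and 4 at an unadjusted p under 0.05 for treatment and treated against young in ExN; 2, 0 and 1 in InN for the 3 comparisons), and DESeq2 called 1 and 2 in ExN and 0 in InN.

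The genes whose level over the 9 mice was most like that of Rims4 in ExN, among 12807 genes with a mean of at least 50 counts, were Rbm34 (Pearson r = 0.991), Foxo6 (0.989), Acsl3 (0.980), Brd1 (0.977) and 2510009E07Rik (0.977). These points share their libraries and the 3 groups, so the genes' changes between groups follow from the choice and are not given as results. Over the mean levels of the 16 neuron types, the most similar genes were Mctp2 (r = 0.934), Astn2 (0.921), Gm27241 (0.907), Csrnp2 (0.893) and Lekr1 (0.889).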

How the data were processed

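Nuclei were profiled with droplet 3′ chemistry, and the deposited matrices hold counts of UMIs per gene and nucleus made by the authors with Cell Ranger on mm10; per the labels the version was 4.0.0, whereas the matrix headers name 7.2.0, and whether intronic reads were counted is not given in the sources used here. Barcodes with 200 to 5000 detected genes and at most 10% mitochondrial counts were kept, and doublets called by Scrublet in scanpy 1.11.5 were removed at 0.8% per 1000 barcodes. Nuclei were clustered (Leiden) and clusters were named from marker lists. The rule for naming (at least 3 markers, each 2 times above the median cluster and in at least 10% of nuclei) was set after the clusters were seen, and the names are not the authors' annotation. Clusters that met no name held 6533 nuclei and were left out of the neuron sums.

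Counts were summed per mouse and neuron class or type and tested with edgeR 4.0.16 (quasi-likelihood test, TMM scaling, low-count filter, all 9 mice in 1 fit) in R 4.3.3, with Benjamini-Hochberg adjustment over all genes and a threshold of 0.05; fits were first tested on simulated data. DESeq2 1.42.0 and the other settings are in the closing section. CPM are on TMM-scaled totals. Exact permutation tests were two-sided, with 0.1 as the smallest p for 3 against 3 mice and 0.00391 over 9 mice. Types with under 20 nuclei in any mouse were not tested. UMI counts give counting error only within a library. The edgeR p-values of the main fit rest on the spread between mice within groups, estimated over all 3 groups together. Leaving out a mouse of a group not compared can therefore change a call.

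The members and gene lists were chosen with earlier results of these data known. Counts of members called that include Rims4 therefore do not come from a blind choice. All 10 members are named. Of 3 further lists, up to 3 genes per direction with the smallest adjusted p were named, and so were the 5 genes most like Rims4 by Pearson r over 9 mice and over 16 types. The labels do not say whether replicate numbers pair mice, and the main fit did not pair them. Deviations of same-numbered mice correlated at -0.40 to 0.45 in ExN (3 of 9 pairs over 0.1) and -0.33 to 0.50 in InN (2 of 9 pairs). With 3 mice per group such correlations cannot settle a pairing.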

Additional observations from a re-analysis of the deposited data

How the results depend on the processing

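Over 10 other settings the Rims4 log2 fold change in ExN was -0.71 to -0.64 with ageing, called in all 10, and 0.61 to 0.67 with treatment, called in 9; with only the 2 groups fitted it was 0.61 (adjusted p = 0.0669). In InN the ageing call was lost with only the 2 groups (-0.65), free RNA subtracted (-0.67) and the replicate block (-0.62). In InN the treatment change was called with DESeq2 (0.59), no low-count filter (0.59), only the 2 groups (0.58) and without striatal-like clusters (0.55). Leaving out 1 mouse gave -0.72 to -0.53 and 0.50 to 0.72 in ExN, and -0.81 to -0.48 and 0.52 to 0.67 in InN. Members called for treatment in ExN numbered 3 with DESeq2, 2 with no low-count filter and 0 with only the 2 groups, where 1347 of 16997, 1059 of 25644 and 104 of 16507 genes were called, against 442 of 16997. For ageing in InN they numbered 2 with DESeq2, no low-count filter, the same mix of neuron types or no striatal-like clusters (877, 1594, 604 and 611 genes called, against 594), and 0 with only the 2 groups, free RNA subtracted or the replicate block (344, 195 and 180 genes). For treatment in InN they numbered 1 with DESeq2 or only the 2 groups, and 2 with no low-count filter or no striatal-like clusters (386, 229, 900 and 256 genes called, against 55). Leaving out 1 mouse gave 0 to 3 members for both comparisons in ExN, where 263 to 3682 genes were called for ageing and 0 to 1489 for treatment. In InN it gave 0 to 2 members for ageing and 0 to 1 for treatment, where 2 to 1358 and 0 to 535 genes were called. Types with Rims4 called numbered 2 to 6 for ageing and 0 to 7 for treatment without 1 mouse. With no low-count filter they numbered 7 for treatment. The shares of all genes called in these type fits are not given here. The replicate block changed no call of Rims4 in ExN (-0.65 and 0.61), and whether the numbers pair the mice is not known. Shares of nuclei with a Rims4 UMI differed by -3.43 and 4.50 percentage points in ExN and by -3.93 and 4.84 in InN at 2000 UMIs, and by -11.8 and 12.9 and by -12.2 and 13.03 without thinning. The cause of these changes was not tested.

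Signs turned only for values that were not called. With age these were Unc13c in ExN (-0.027 with the replicate block, -0.13 with no upper limit on genes, and -0.65 to 0.31 without 1 mouse), Rims3 in ExN (-0.35 to 0.13 without 1 mouse), Pclo in ExN (-0.11 to 0.036 without 1 mouse), and, in InN, Pclo (0.024 without striatal-like clusters, -0.17 to 0.075 without 1 mouse), Rimbp2 (-0.20 to 0.0066 without 1 mouse) and Rims1 (-0.066 to 0.17 without 1 mouse). With treatment they were Unc13c in ExN (-0.33 with the same mix of types, -0.30 to 0.82 without 1 mouse), Rimbp2 in ExN (-0.0023 with the same mix, -0.074 to 0.10 without 1 mouse), and Rims3 (0.001) and Unc13b (-0.0047) in InN with the same mix.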
